A study of Mus musculus with 8 samples.

Results

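Of the semaphorin, plexin and neuropilin genes that the study did not name from its RNA-Seq data, 10 were chosen by symbol for this description: *Sema3c*, *Sema3e*, *Sema4c*, *Sema4d*, *Sema5a*, *Sema6a*, *Sema6d*, *Plxnb1*, *Plxnb2* and *Nrp2*. Of these symbols, 9 were among the 12148 genes of the expression table, namely 6 semaphorins, 2 plexins and 1 neuropilin, and all 9 were compared without a further filter. *Sema3c* was not analysed here. The rule used symbols. It left out family genes that the study named from these samples, so the choice was not independent of the measured values.

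RNA was sequenced from the dental pulp of mandibular first molars (M1) of C57BL/6J mice at postnatal day 7 (P7). Both groups carried the Osterix-Cre transgene, in which the Osterix promoter drives the recombinase in the mesenchyme that forms osteoblasts and odontoblasts. The 4 control libraries (Osterix-Cre) carried the transgene alone, and the 4 mutant libraries (*Tgfbr2cko*, Osterix-Cre:Tgfbr2f/f) also carried floxed alleles of the type II TGFβ receptor. Left and right M1s went into 1 lysate, so a value is an average over both teeth and over cells with and without Cre activity. Libraries are named here by the numbers in their labels, 49 to 52 for controls and 53 to 56 for mutants. The labels carry a further number that recurs within groups and, for 1 number, across them, and whether such libraries share an animal is not given, so the p-values measure the spread between these libraries.

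Semaphorins are secreted or membrane-bound guidance proteins that repel or attract growing axons, and they also act on endothelial, immune and bone cells. Their receptors are the plexins, whose cytoplasmic part acts on small GTPases and through them on the cytoskeleton. The secreted class 3 semaphorins mostly need a neuropilin as co-receptor, whereas membrane-bound semaphorins bind plexins directly. In the tooth, semaphorins of the pulp mesenchyme are known for timing the entry of trigeminal axons.

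Each library held between 8682872 and 13539670 reads on the 12148 genes, and 1 read corresponded to between 0.0739 and 0.115 CPM, the reads of a gene scaled to a fixed library total. *Tgfbr2* was 7.48 ± 0.22 log2 CPM in controls and 7.20 ± 0.28 in mutants (SD, n = 4 each), a difference of -0.29 that did not pass the tests (limma, adjusted p = 0.790, exact permutation test, p = 0.143). Mutants 55 and 56 lay within the control range. The difference passed an unadjusted p under 0.05 without mutant 56 (-0.42), without control 49 (-0.39), with library weights (-0.42) and without the 3 libraries richest in enamel matrix reads (-0.58). Library 56 also stood apart by its enamel matrix transcripts, since *Amelx*, *Enam* and *Ambn* took 19.2% of its reads and between 0.334% and 2.87% of those of each other library. All 7 odontoblast markers were in the table, whereas only 4 of 9 axon markers were. *Sox10*, a marker of Schwann cells, and the neurofilament genes were not among the genes analysed. In bulk pulp, fewer cells of a type and less RNA per cell cannot be told apart.

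None of the 9 genes differed between genotypes at an unadjusted p under 0.05 in limma's test, against 8.38% of all genes, and the 2 groups of libraries overlapped for every one of them, against 5.27% of all genes whose groups did not overlap. The 9 are what remained once the family genes named from these samples were left out. All 8 of those in the table passed unadjusted, so the shares of all genes beside these counts are no test of the family. The mutant mean was higher for 6 genes (*Sema3e*, *Sema5a*, *Sema6a*, *Sema6d*, *Plxnb1* and *Nrp2*) and lower for 3 (*Sema4c*, *Sema4d* and *Plxnb2*). Only *Sema3e* and *Sema4c* had means at least 1.5-fold apart, as did 7.84% of all genes. None was altered by the study's criteria of an unadjusted p under 0.05 with a change of at least 1.5-fold, against 5.77% of all genes, and none had an adjusted p under 0.05, against 0.947%. The median log2 fold change of the 9 genes was 0.14, beside -0.0053 over all genes, and the median of its size was 0.20, beside 0.14.

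**Figure D1:**
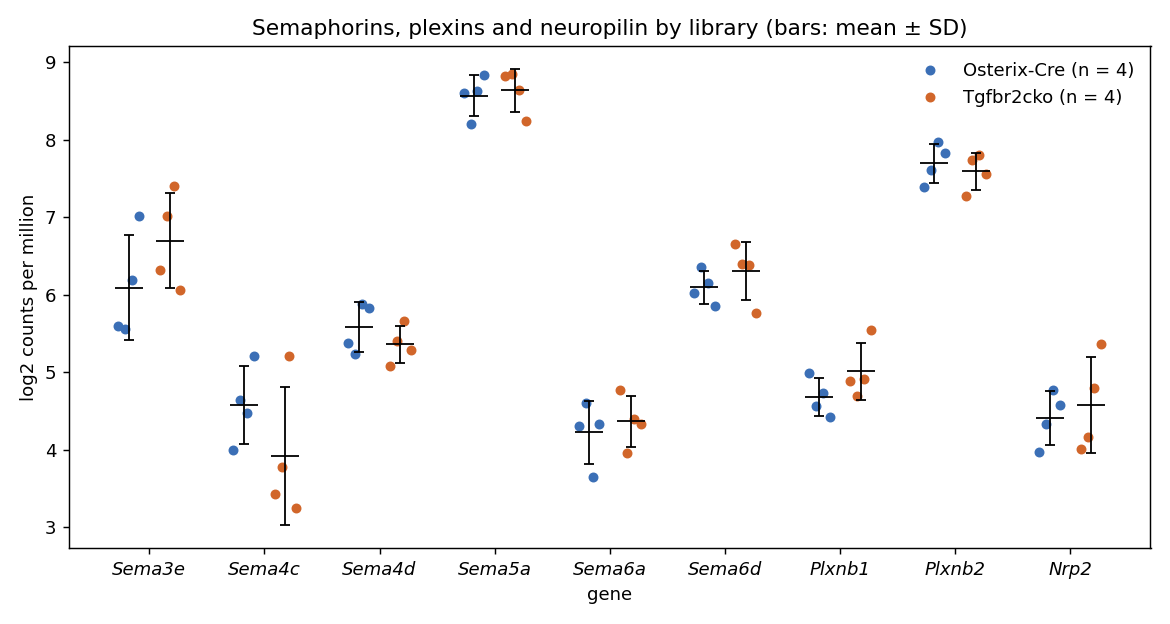
Log2 CPM (vertical axis) of the 9 genes in each of the 4 Osterix-Cre (blue) and 4 *Tgfbr2cko* (orange) libraries, with the mean ± SD as bars and the libraries of a group ordered by label number from left to right. The groups overlapped for all 9 genes, and the spread within a group was widest for *Sema3e* among controls and for *Sema4c* among mutants.

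*Sema3e*, on chromosome 5 from 14025276 to 14256689 of GRCm38, encodes a secreted class 3 semaphorin that, unlike most of its class, can bind plexin D1 without a neuropilin. It measured 5.60, 5.56, 6.19 and 7.02 log2 CPM in control libraries 49 to 52 and 6.32, 7.02, 7.40 and 6.06 in mutant libraries 53 to 56. Mutant libraries 54 and 55 lay at or above the highest control and the other 2 mutants lay among the controls. The mean was 6.09 ± 0.68 in controls and 6.70 ± 0.62 in mutants (SD, n = 4 each), a log2 fold change of 0.61 (SE 0.33) with a 95% confidence interval from -0.12 to 1.33. The difference was within the spread between libraries (limma, p = 0.0929, adjusted p = 0.728, exact permutation test, p = 0.229). At 456 to 1593 reads per library, counting error was small beside that spread.

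The comparison of *Sema3e* turned on single libraries. Without control 52, its highest control, the log2 fold change was 0.91 (limma, adjusted p = 0.326), and *Sema3e* then passed the unadjusted threshold, as did 7.56% of all genes in that fit. Without mutant 56, the library with the large share of enamel matrix reads, it was 0.82 (limma, adjusted p = 0.392) and also passed unadjusted, as did 9.58% of all genes. Leaving out any other library gave an unadjusted p over 0.05, with a lowest log2 fold change of 0.37 without mutant 55. With title numbers averaged it was 0.44, and without the 3 libraries richest in enamel matrix reads it was 0.41. Neither of these passed unadjusted.

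Within each genotype *Sema3e* followed the odontoblast markers, the dentin and bone matrix genes *Dspp*, *Dmp1*, *Nes*, *Phex*, *Col1a1*, *Ifitm5* and *Bglap*. Their mean log2 value ran from 9.38 to 10.54 in controls and from 9.22 to 9.89 in mutants. The Pearson correlation of *Sema3e* with that mean over the 8 libraries was 0.53 (exact permutation test, p = 0.180, Benjamini-Hochberg adjusted p = 0.566 over 72 relations), Spearman's rho was 0.48 (exact permutation p = 0.243), and r was 0.38 without the 2 libraries farthest from the median. After subtracting each genotype's mean the correlation was 0.95, given as a description because the relation was chosen after the values were seen. Within each group, then, libraries rich in odontoblast transcripts were rich in *Sema3e*, and the mutant libraries lay above the controls at a like marker level.

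Relative to the odontoblast marker mean, *Sema3e* was at -4.11, -3.82, -3.96 and -3.52 log2 units in control libraries 49 to 52 and at -2.92, -2.87, -2.46 and -3.17 in mutant libraries 53 to 56. On this scale every mutant library lay above every control, a difference of 0.996 log2 units (exact permutation test, p = 0.0286, the smallest that 4 against 4 can give). The other 8 members still overlapped, and 4.41% of all genes did not. *Sema3e* lay apart in the same way relative to 5 of the 7 markers taken singly. The differences were 1.32 (*Dspp*), 1.42 (*Nes*), 0.46 (*Phex*), 1.46 (*Col1a1*) and 1.325 (*Bglap*) log2 units. For *Phex* the gap was narrow, from -2.92 in the highest control to -2.85 in the lowest mutant. *Sema3e* did not lie apart relative to *Dmp1* or *Ifitm5*, for which the differences were 1.04 and -0.058 log2 units. The share of all genes lying apart from each single marker was not computed. With the marker mean as a covariate in limma, the log2 fold change of *Sema3e* was 1.15 (SE 0.18, adjusted p = 0.00814), and 1.09% of all genes had an adjusted p under 0.05. The covariate was added after the values were seen, and 5 of its 7 genes had lower means in mutants, so this fit compares *Sema3e* with odontoblast transcripts and not with total RNA.

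**Figure D2:**
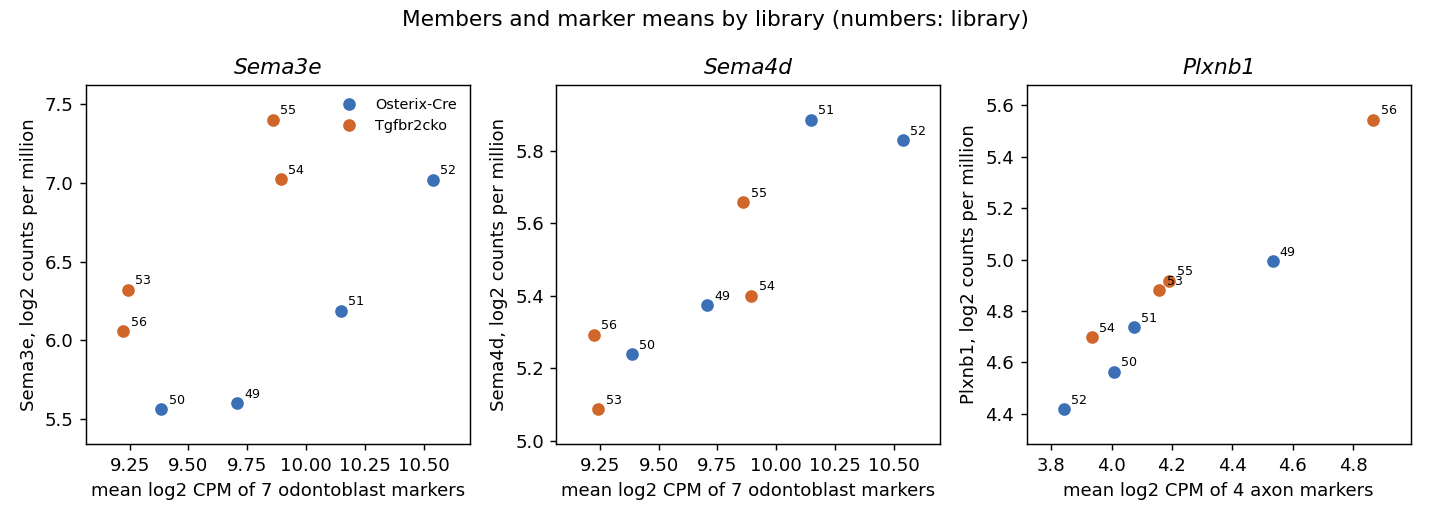
Log2 CPM of *Sema3e*, *Sema4d* and *Plxnb1* (vertical axes) against the mean log2 CPM of 7 odontoblast markers or 4 axon markers (horizontal axes) in 4 Osterix-Cre (blue) and 4 *Tgfbr2cko* (orange) libraries, each point 1 library with its label number. For *Sema3e* the mutant libraries lie above the controls at like marker levels, whereas for *Sema4d* and *Plxnb1* the 2 genotypes share 1 trend.

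The class 4 semaphorins are membrane-bound ligands of the plexin-B receptors. *Sema4c*, a ligand of plexin B2, lies on chromosome 1 from 36548639 to 36558349. It was at 3.997, 4.64, 4.47 and 5.21 log2 CPM in controls 49 to 52 and at 3.43, 3.77, 5.21 and 3.25 in mutants 53 to 56. In 3 of the 4 mutants it was below every control, and in mutant 55 it was as high as in the highest control. The mean was 4.58 ± 0.50 in controls and 3.91 ± 0.89 in mutants (SD, n = 4 each), with a log2 fold change of -0.67 (SE 0.38, 95% confidence interval -1.49 to 0.16) that did not pass the test (limma, p = 0.104, adjusted p = 0.757, exact permutation test, p = 0.229). Without mutant 55 the log2 fold change was -1.10 (limma, adjusted p = 0.141) and passed the unadjusted threshold, as did 7.3% of all genes in that fit, and leaving out any other library gave no unadjusted p under 0.05. The difference was larger, and passed unadjusted, with title numbers averaged (-0.75) and without the 3 libraries richest in enamel matrix reads (-1.17), and it was nearer 0 without mutant 56 (-0.44), with library weights (-0.33) and with the odontoblast marker mean as a covariate (-0.28). The gene was read at 95 to 379 reads per library, and 7.27% of its exonic length overlaps *D430040D24Rik* on the other strand, whose reads could not be told apart from its own because the strand setting of the counting is not given.

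*Sema4d*, a ligand of plexin B1 that osteoclasts also release to restrain osteoblasts, lies on chromosome 13 from 51685529 to 51793747. Its log2 CPM was 5.37, 5.24, 5.89 and 5.83 in controls 49 to 52 and 5.09, 5.40, 5.66 and 5.29 in mutants 53 to 56. Controls 51 and 52 were highest and the remaining libraries mingled. The log2 fold change was -0.22 (SE 0.19, 95% confidence interval -0.63 to 0.19; limma, p = 0.259, adjusted p = 0.916, exact permutation test, p = 0.286), so an increase of 1.5-fold lay outside the interval while a decrease of that size did not. It ran from -0.34 without control 50 to -0.12 without control 51, and no fit without 1 library passed. *Sema4d* ran parallel to the odontoblast marker mean over the 8 libraries, with r = 0.90 (exact permutation test, p = 0.00303, adjusted p = 0.109 over 72 relations), rho = 0.88 (exact permutation test, p = 0.00724) and r = 0.92 without the 2 libraries farthest from the median. The relation did not pass the correction. With the marker mean as a covariate its genotype difference was -0.0038 (95% confidence interval -0.36 to 0.36).

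The class 5 and class 6 semaphorins are membrane proteins that signal mainly through plexin-A receptors, and class 6 members can themselves act as receptors. *Sema5a*, which carries thrombospondin repeats beside its semaphorin domain, lies on chromosome 15 from 32244810 to 32696341. It measured 8.60, 8.21, 8.64 and 8.84 log2 CPM in controls 49 to 52 and 8.82, 8.85, 8.65 and 8.25 in mutants 53 to 56. The 2 ranges nearly coincided. Its log2 fold change was 0.07 (SE 0.18, limma, p = 0.708, adjusted p = 0.998, exact permutation test, p = 0.571), and its 95% confidence interval, from -0.33 to 0.47, excluded a change of 1.5-fold in either direction. Its upper limit passed 1.5-fold without control 52 (0.587), with the odontoblast covariate (0.62) and without the 3 libraries richest in enamel matrix reads (0.72).

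*Sema6a*, a ligand of plexins A2 and A4 on chromosome 18, was at 4.30, 4.61, 3.65 and 4.33 log2 CPM in controls 49 to 52 and at 4.77, 3.96, 4.40 and 4.34 in mutants 53 to 56. Its lowest value was a control and its highest a mutant, with the others intermingled. The log2 fold change was 0.14 (SE 0.24, 95% confidence interval -0.36 to 0.65; limma, p = 0.551, adjusted p = 0.995, exact permutation test, p = 0.543). *Sema6d*, a ligand of plexin A1, lies on chromosome 2 from 124089969 to 124667770. Its log2 CPM was 6.03, 6.35, 6.16 and 5.85 in controls 49 to 52 and 6.65, 6.40, 6.38 and 5.77 in mutants 53 to 56. Mutants 53, 54 and 55 lay above every control and mutant 56 lay below them all. The log2 fold change was 0.20 (SE 0.19, 95% confidence interval -0.21 to 0.62; limma, p = 0.304, adjusted p = 0.945, exact permutation test, p = 0.400), and without mutant 56 it was 0.38 (limma, adjusted p = 0.404), which passed the unadjusted threshold but stayed under 1.5-fold. It was 0.087 without mutant 53 and 0.12 without control 52, neither of which passed.

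Of the receptors, plexin B1 is the high-affinity receptor of *Sema4d* and acts through guanine nucleotide exchange factors for RhoA. *Plxnb1* lies on chromosome 9 from 109095389 to 109119917. It was at 4.99, 4.56, 4.74 and 4.42 log2 CPM in controls 49 to 52 and at 4.88, 4.70, 4.92 and 5.54 in mutants 53 to 56. Only mutant 56 exceeded the highest control. The log2 fold change was 0.33 (SE 0.21, 95% confidence interval -0.12 to 0.78; limma, p = 0.133, adjusted p = 0.810, exact permutation test, p = 0.200), and it was 0.15 without mutant 56.

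*Plxnb1* tracked the mean of the 4 axon markers in the table, *Tubb3*, *Uchl1*, *Stmn2* and *Gap43*. Over the 8 libraries r was 0.95 (exact permutation test, p = 0.000124, adjusted p = 0.00893 over 72 relations) and rho was 0.98 (exact permutation test, p = 0.000397, adjusted p = 0.0286). Without control 49 and mutant 56, the libraries farthest from the median marker level, r was 0.92, and it was 0.99 after subtracting each genotype's mean. The relations of all 9 genes with 8 marker lists were computed after the values were seen, and this was the only 1 of the 72 that passed the correction. The neurofilament genes and *Prph*, which define axons more narrowly, were not among the genes analysed, and *Plxnb1* also ran with the enamel organ markers, at r = 0.77 (exact permutation test, p = 0.0261, adjusted p = 0.454), with rho = 0.60 (exact permutation test, p = 0.132) and r = 0.71 without the 2 libraries farthest from the median. The part of either tissue in the *Plxnb1* values was not tested.

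*Plxnb2*, on chromosome 15 from 89155549 to 89180788, encodes a receptor of several class 4 semaphorins that is widely expressed in developing epithelia and neural tissue. Its log2 CPM was 7.39, 7.61, 7.97 and 7.83 in controls 49 to 52 and 7.28, 7.74, 7.80 and 7.56 in mutants 53 to 56. The mutant values spanned nearly the control range. Its log2 fold change was -0.11 (SE 0.17, limma, p = 0.537, adjusted p = 0.995, exact permutation test, p = 0.543), and the 95% confidence interval from -0.47 to 0.26 lay within 1.5-fold in both directions. Its lower limit passed 1.5-fold without mutant 55 (-0.587) and without the 3 libraries richest in enamel matrix reads (-0.71), and the log2 fold change ran from -0.21 without control 49 to -0.0014 without mutant 53. *Plxnb2* and *Sema5a* were the 2 of 9 genes with such an interval in the fit to all 8 libraries, against 48.2% of all genes.

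*Nrp2* encodes neuropilin 2, the co-receptor that binds *Sema3f* and *Sema3c* proteins and the lymphatic growth factor VEGF-C, and lies on chromosome 1 from 62703285 to 62818695. It was at 3.97, 4.33, 4.77 and 4.58 log2 CPM in controls 49 to 52 and at 4.005, 4.17, 4.79 and 5.36 in mutants 53 to 56. Mutants 53 to 55 fell within or just past the control range and mutant 56 was well above it. The log2 fold change was 0.17 (SE 0.28, 95% confidence interval -0.44 to 0.78; limma, p = 0.563, adjusted p = 0.997, exact permutation test, p = 0.629), and without mutant 56 it was -0.092, so the sign of the mean difference rested on that library.

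**Figure D3:**
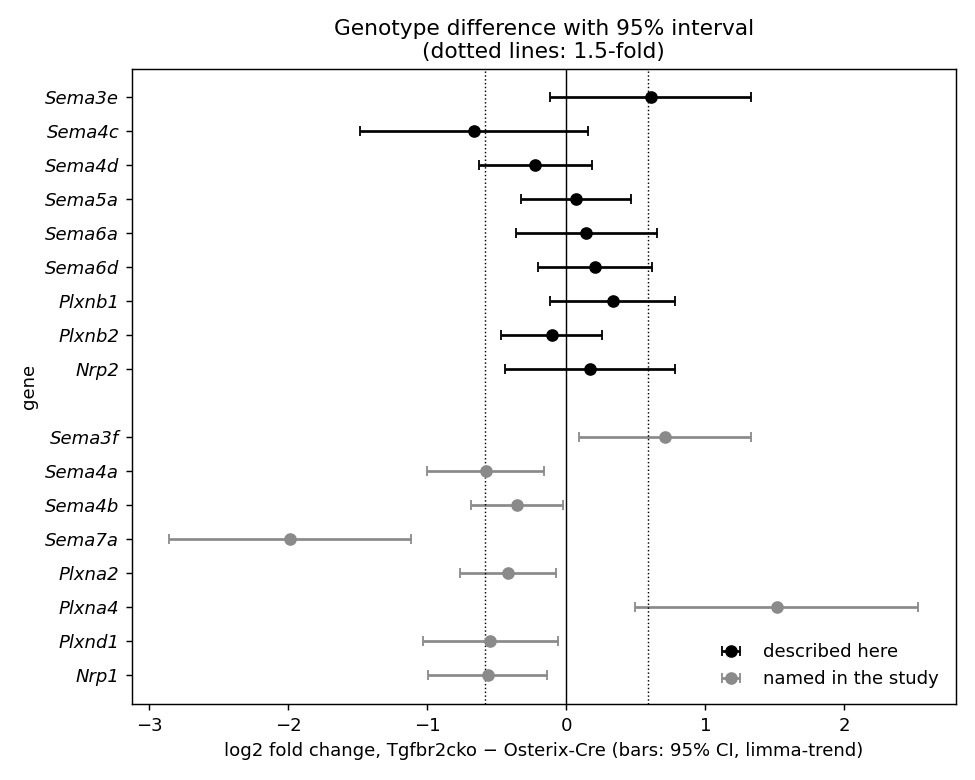
Log2 fold change (*Tgfbr2cko* minus Osterix-Cre, horizontal axis) with its 95% confidence interval from limma for the 9 genes (black) and for 8 family genes that the study named (grey), with dotted lines at 1.5-fold. All 9 black intervals cross 0, and those of *Sema5a* and *Plxnb2* stay between the dotted lines.

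Levels of different genes were compared per kilobase of exonic sequence. On this scale, over all 8 libraries, *Plxnb2* was the most abundant of the 9 at 4.70 ± 0.23 log2 CPM per kb (SD, n = 8), followed by *Sema5a* at 4.38 ± 0.25, *Sema3e* at 3.18 ± 0.68 and *Sema6d* at 2.80 ± 0.30. Below these came *Sema4d* at 2.53, *Sema4c* at 2.05, *Plxnb1* at 1.58, *Sema6a* at 1.16 and *Nrp2* at 0.93. The ranges of neighbours in this order overlapped throughout, but *Sema5a* exceeded *Sema3e* in 8 of 8 libraries and *Plxnb2* exceeded *Sema5a* in 7 of 8, whereas *Sema3e* and *Sema6d*, *Sema4d* and *Sema4c*, and *Plxnb1* and *Sema6a* kept their order in only 5 of 8. Among all 24 family genes in the table *Plxnb2* ranked 1 and *Sema5a* ranked 4 by the mean over all libraries, but *Plxnb2* exceeded *Plxnd1*, next in order, in only 5 of 8 libraries, and *Sema3b*, just above *Sema5a*, exceeded it in only 3 of 8. In controls *Plxnd1* had the higher mean (4.82 against 4.75 log2 CPM per kb), and in mutants *Sema5a* (4.42) had a higher mean than *Plxnd1* (4.27) and *Sema3b* (4.26). Of the summed length-scaled level of the 15 semaphorins, *Sema5a* made up 18.6% ± 2.71 in controls and 22.1% ± 2.41 in mutants and *Sema3e* 7.04% ± 2.80 and 12.0% ± 3.94 (SD, n = 4 each).

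Ratios within a library do not depend on its total. The log2 ratio of *Nrp2* to *Nrp1*, the neuropilin that binds *Sema3a* protein, was -3.21, -3.13, -2.83 and -2.50 in controls 49 to 52 and -2.97, -2.57, -2.33 and -0.87 in mutants 53 to 56. Mutants 55 and 56 lay above every control, 56 by far, and the other 2 mutants lay among the controls. The difference of 0.74 did not pass an exact permutation test (p = 0.143, adjusted p = 0.305 over 4 ratios) and was 0.30 without mutant 56. The ratio of *Plxnb1* to *Plxnb2* was -3.02 ± 0.44 in controls and -2.58 ± 0.47 in mutants (exact permutation p = 0.171), that of *Sema4c* to *Sema4d* -1.003 ± 0.46 and -1.45 ± 0.69 (exact permutation p = 0.229) and that of *Sema6a* to *Sema6d* -1.88 ± 0.43 and -1.94 ± 0.41 (exact permutation p = 0.800; SD, n = 4 each).

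The family genes that the study named were picked from these samples, so their changes are no independent evidence of direction. All 8 of them in the table had an unadjusted p under 0.05, with *Sema3f* and *Plxna4* higher and *Sema4a*, *Sema4b*, *Sema7a*, *Plxna2*, *Plxnd1* and *Nrp1* lower in mutants. By the study's criteria, which also ask for 1.5-fold, 2 were altered higher (*Sema3f* and *Plxna4*) and 1 lower (*Sema7a*). The rest stayed under 1.5-fold. When the libraries were left out in turn, *Sema4b* passed unadjusted in 4 of the 8 fits, *Sema3f* and *Plxnd1* in 5 and *Plxna2* in 6, and the other 4 genes in all 8. Receptors and ligands of the 9 genes are among them. *Plxnd1*, which encodes the receptor of *Sema3e* protein, had a log2 fold change of -0.55 (limma, adjusted p = 0.460, exact permutation test, p = 0.0857), but -0.305 without mutant 56 and -0.32 with the mean log2 level of the enamel matrix genes as a covariate, neither of which passed unadjusted. *Plxna4*, for a receptor of *Sema6a* protein, had 1.51 (limma, adjusted p = 0.222, exact permutation test, p = 0.0571), and 0.94 without mutant 56. *Sema3f*, whose product binds neuropilin 2, had 0.71 (limma, adjusted p = 0.452, exact permutation test, p = 0.0571), and 0.48 without control 52, where it no longer passed unadjusted, beside 0.17 for *Nrp2* itself. Of these 8, only *Sema7a* had an adjusted p under 0.05, with a log2 fold change of -1.99 (limma, adjusted p = 0.0329).

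Of 11 further semaphorins and plexins listed, 7 were in the table and 1, *Plxna3*, passed an unadjusted p under 0.05, as did 8.38% of all genes, with a log2 fold change of 0.40 (limma, adjusted p = 0.482). It passed in only 3 of 8 fits when libraries were left out in turn. Among co-receptors, 9 of 13 were in the table, of which 2 passed unadjusted: *Flt1*, a VEGF receptor, at -0.40 (limma, adjusted p = 0.587), which passed in only 2 of 8 such fits and not under TMM scaling, median centring or library weights, and *Trem2*, which pairs with plexin A1 on myeloid cells, at 1.33 (limma, adjusted p = 0.0391). None of the 3 measured genes of 4 listed that encode other neuropilin ligands passed. All 31 listed cytoplasmic effectors of plexins were in the table and 3 passed unadjusted, which is near the share of all genes. *Crmp1*, a collapsin response mediator of semaphorin signalling, fell by 1.93 (limma, adjusted p = 0.0202). *Rnd1*, a GTPase that binds plexins, had a log2 fold change of 1.03 (limma, adjusted p = 0.347), not passing without mutant 54 (0.79) or 55 (0.91), and *Mical2*, an actin-oxidising enzyme, had 0.72 (limma, adjusted p = 0.275), and 0.33 without the 3 libraries richest in enamel matrix reads, where it no longer passed. In each of these lists most members did not pass.

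Among the markers, endothelial transcripts summed to 357 to 463 CPM in controls and 288 to 370 CPM in mutants over 8 of 8 genes, and their mean log2 values did not overlap (5.34 to 5.80 and 4.92 to 5.27). Dental mesenchyme markers, 8 of 8 in the table, summed to 19579 to 39266 CPM in controls and 11896 to 17888 CPM in mutants, without overlap, while their mean log2 values overlapped (7.70 to 7.87 and 7.35 to 7.72). Pericyte and smooth muscle transcripts summed to 652 to 939 CPM and 438 to 852 CPM over 7 of 8 genes, and macrophage and leukocyte transcripts to 783 to 1137 CPM and 471 to 980 CPM over 8 of 8. The 4 axon markers in the table summed to 95.5 to 119 CPM in controls and 112 to 187 CPM in mutants. The odontoblast markers summed to between 47713 and 101800 CPM in controls and between 29215 and 62897 CPM in mutants. Enamel organ markers, 10 of 10 in the table, summed to between 4186 and 23489 CPM in controls and to between 4457 and 195820 CPM in mutants. *Nrp2*, like *Plxnb1* highest in mutant 56, had r = 0.73 with the mean of these enamel organ markers (exact permutation test, p = 0.0365, adjusted p = 0.454), with rho = 0.60 (exact permutation test, p = 0.132), and r was 0.17 without the 2 libraries farthest from the median, so the relation rested on those libraries. The part of enamel organ transcripts in the *Nrp2* values was not tested. *Sema6d* ran the other way with the enamel organ markers, at r = -0.72 (exact permutation test, p = 0.0425, adjusted p = 0.454), and at -0.27 without those 2 libraries. *Plxnb2* ran with the odontoblast markers, at r = 0.75 (exact permutation test, p = 0.0333, adjusted p = 0.454).

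**Figure D4:**
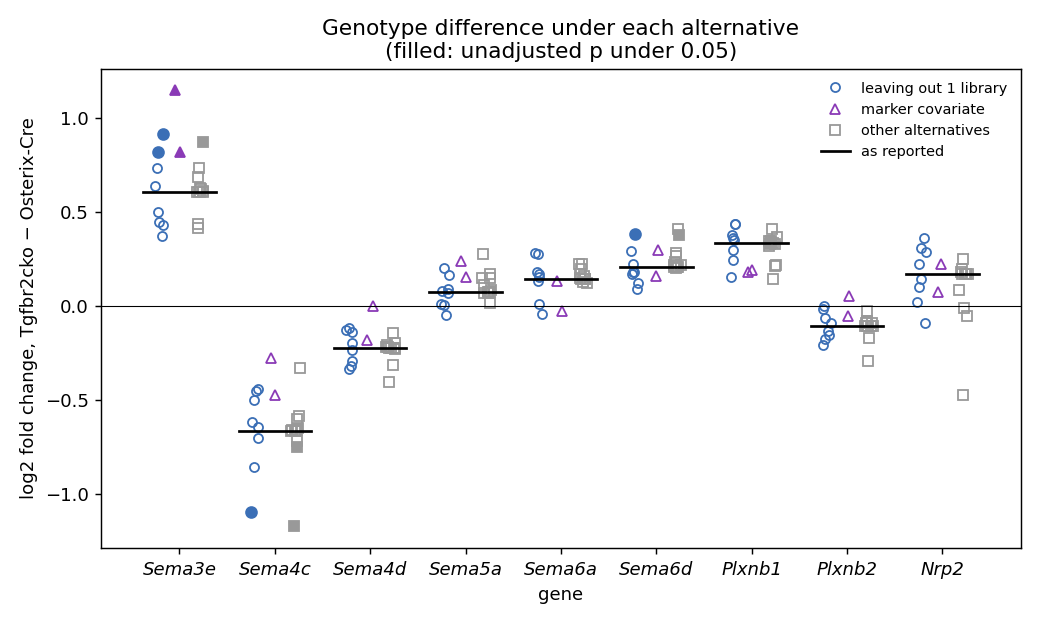
Log2 fold change (*Tgfbr2cko* minus Osterix-Cre, vertical axis) of the 9 genes as reported (black line) and under each alternative, leaving out 1 library (circles), with a marker covariate (triangles) or with another processing choice (squares), filled where the unadjusted p was under 0.05. *Sema3e*, *Sema6d* and *Plxnb1* stayed above 0 and *Sema4c* and *Sema4d* below 0 under every alternative run. *Sema5a*, *Sema6a*, *Plxnb2* and *Nrp2* crossed 0.

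The sequences before the gene starts of *Sema3e*, the member with the largest higher mutant mean, and *Plxnb2*, the most abundant member and 1 of the 2 with an interval within 1.5-fold, are printed to set the 2 side by side. They are the 250 bases before a start in RefSeq on GRCm38.p6, overlap no annotated exon, and read 5′ to 3′ on the gene's strand, with matches to the GC box GGGCGG on either strand in capitals.
*Sema3e*, chr5:14025026-14025275, plus strand: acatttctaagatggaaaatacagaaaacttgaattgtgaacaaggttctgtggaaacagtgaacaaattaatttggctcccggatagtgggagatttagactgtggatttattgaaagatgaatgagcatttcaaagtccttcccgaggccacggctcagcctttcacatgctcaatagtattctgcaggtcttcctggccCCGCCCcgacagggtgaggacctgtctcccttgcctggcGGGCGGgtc
*Plxnb2*, chr15:89180789-89181038, minus strand: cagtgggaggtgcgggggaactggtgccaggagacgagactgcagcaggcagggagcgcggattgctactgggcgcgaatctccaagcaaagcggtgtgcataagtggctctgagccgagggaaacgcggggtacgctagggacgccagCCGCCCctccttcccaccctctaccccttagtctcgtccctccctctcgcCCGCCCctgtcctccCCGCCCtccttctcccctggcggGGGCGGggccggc
The *Sema3e* window was 48.0% G and C with 2 GC boxes, and the *Plxnb2* window shown was 69.2% with 4. A further *Plxnb2* window that also overlaps no exon, chr15:89173952-89174201, was 63.6% with 3. Of the 13 windows of this length before the starts of 8 members, some of which overlap exons, 10 held a GC box, against 32.7% of 32851 windows. The palindromic SMAD site GTCTAGAC was in 0 of the 13 and in 0.167% of all windows, the letters CAGACA of the SMAD-binding CAGA box were in 2 of the 13 (1 window each of *Sema4d* and *Sema6d*) and in 17.1% of all, and TATAAA was in 0 of the 13 and in 12.4% of all, each searched on both strands. A match is only a run of letters, and a window without one says nothing about a factor.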

How the data were processed

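RNA of 8 pulp libraries was amplified from a low input without molecular identifiers. Per the labels and the study's methods, the authors trimmed reads with fastp 0.21.0, aligned them with HISAT2 2.1.0 to GRCm38.p5 and counted them per gene with featureCounts (Subread 2.0.1) on GENCODE M14. They kept genes that the CLEAR workflow called quantifiable and applied voom. The deposited log2 values are therefore log2 CPM with 0.5 added to the count, and all 97184 of them gave back whole reads, to within 3.61e-08 of a read. Intervals cover spread between libraries, and read limits counting error only. No pair of libraries agreed within counting noise (chi-square per degree of freedom 19.1 to 284 over 28 pairs).

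Symbols, positions and exonic lengths came from GENCODE M21 on GRCm38, matching 12144 of 12148 identifiers, and windows before gene starts from RefSeq. Genotypes were compared in R 4.3.3 with limma 3.58.1 (moderated test with an intensity trend, two-sided, Benjamini-Hochberg adjustment over 12148 genes, 95% intervals), and single values by two-sided exact permutation over the 70 arrangements of 4 against 4, or over all pairings for correlations. The fit was checked on simulated data. Genes named beside the 9 are those of the fixed lists with an unadjusted p under 0.05. The members, lists and tests were chosen with earlier results of these data known. Alternatives were no trend, library weights, voom weights, quantile normalization, median centring, TMM scaling, totals without enamel matrix reads, a prior count of 2, a mean log2 of at least 3, averaging libraries that share a title number, an enamel matrix covariate and leaving out each library. Those chosen after the data were seen left out the 3 libraries with the largest enamel matrix share (control 49, mutants 55 and 56) or added the odontoblast or axon marker mean as a covariate. The values relative to odontoblast markers and their tests were also added after the data were seen. Python 3.11.15, numpy 2.4.6, pandas 2.3.3, scipy 1.17.1 and matplotlib 3.10.9 were used for the rest.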

Additional observations from a re-analysis of the deposited data

How the results depend on the processing

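Most member values kept direction and side of the threshold: 180 values under alternatives did so, 10 passed an unadjusted p under 0.05 and 8 changed sign. The count of members with an unadjusted p under 0.05, 0 as reported, was 1 with library weights, with title numbers averaged, with the enamel matrix, odontoblast or axon marker covariate and without the 3 libraries richest in enamel matrix reads, and 0 to 2 when each library was left out. Of all 12148 genes, 1341, 1092, 1169, 1178, 1157 and 1259 passed in the first 6 of these fits, so that 1 of 9 is near the share of all genes. When each library was left out, 827 to 1334 of all genes passed. The count of altered members, also 0, was 1 with library weights, title numbers averaged, either marker covariate and without those 3 libraries, and 0 to 1 leaving out each library. Of all genes, 709, 779, 761 (odontoblast covariate), 647 (axon covariate) and 844 were altered in these fits, and 625 to 947 leaving out each library. The count with an adjusted p under 0.05 was 1 with the odontoblast covariate, beside 133 of all genes, and 0 leaving out each library. The members concerned were *Sema3e* (0.87 with library weights, 0.82 with the axon covariate), *Sema4c* (-0.75 with title numbers averaged, -1.17 without the 3 libraries) and *Sema6d* (0.37 with the enamel covariate). Leaving out each library, the log2 fold change ran from -0.052 (without control 50) to 0.20 for *Sema5a*, from -0.047 (without control 51) to 0.28 for *Sema6a* and from -0.092 (without mutant 56) to 0.36 for *Nrp2*. The sign also changed for *Sema6a* (-0.030) and *Plxnb2* (0.051) with the odontoblast covariate, and for *Nrp2* with library weights (-0.014), with the enamel covariate (-0.052) and without the 3 libraries (-0.47). The *Sema6a* to *Sema6d* ratio difference ran from -0.27 to 0.11 leaving out each library. For *Sema4c* to *Sema4d* it ran from -0.78 to -0.24, and for *Plxnb1* to *Plxnb2* from 0.25 to 0.65. Genes with an adjusted p under 0.05 numbered 115, 258 with library weights, and 65 to 165 leaving out each library. The causes were not tested. No paired analysis was possible because the groups share no replicate number and only 1 title number (control 51, mutants 54 and 55).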

Other observations

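The genes whose pattern over the 8 libraries was nearest to that of a member were found by the root mean square difference of centred log2 values, over all 12148 genes, after the values were seen. Nearest to *Sema3e* were *Slc45a3* at 0.22, *Lingo3* at 0.23 and *Trpm7* at 0.24, beside 0.64 for the spread of *Sema3e* itself. *Trpm7*, an ion channel with a kinase domain, was at 8.72, 8.48, 9.31 and 9.50 log2 CPM in controls 49 to 52 and at 9.19, 9.995, 9.87 and 9.03 in mutants 53 to 56, so that, as for *Sema3e*, its 2 highest values were mutants 54 and 55. Nearest to *Sema4c* were *Mrc2*, a collagen-binding receptor of mesenchymal cells, at 0.33, *Itgb3* at 0.33 and *Kif13b* at 0.34, beside 0.71 for *Sema4c* itself, and *Mrc2* was likewise highest among mutants in library 55, at 9.22. These are likenesses over 8 libraries with no test.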
